A study of Homo sapiens with 6 samples.

Results

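Silencing of NRF3 was examined in the human colon cancer line HCT116 and in its p53-deficient derivative HCT116-p53KO, and the genes that moved the same way in both lines are described here. The groups were HCT116 with NRF3 siRNA, HCT116-p53KO with NRF3 siRNA, and each line with control siRNA, all transiently transfected and collected after 48 h, with 1 Affymetrix array each. They make up 4 of the 6 arrays of the study. The other 2 arrays are of the lung cancer line H1299, stably transfected with an NRF3 plasmid or a GFP plasmid and selected with G-418, and they serve as a separate readout of the same genes. Values are the deposited RMA log2 intensities, and differences are NRF3 siRNA minus control siRNA on the log2 scale within a line. Of 18417 genes with a probe set of their own, 14148 reached 6 on at least 1 of the 4 arrays and were tested. Among them 230 genes (1.63%) were at least 1.5-fold lower and 162 genes (1.15%) at least 1.5-fold higher with NRF3 siRNA in both lines, 392 genes in all. Where 2 values are joined by "and" below, they belong to HCT116 and HCT116-p53KO in that order.

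NRF3, encoded by NFE2L3, is a transcription factor of the CNC basic leucine zipper family, whose members pair with small MAF proteins and bind antioxidant response elements. It is held in the endoplasmic reticulum until it is cut and released, and its gene is often highly expressed in colorectal tumours. Its better known relatives are NRF1, which drives proteasome genes, and NRF2, which drives antioxidant genes.

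The labels were checked first on the targeted gene. NFE2L3 was at 6.62 and 7.15 with NRF3 siRNA, against 8.97 and 8.71 with control siRNA. Both NRF3 siRNA arrays lay below both control siRNA arrays, 5.11-fold lower in HCT116 and 2.94-fold lower in HCT116-p53KO. In H1299 it was at 10.20 with the NRF3 plasmid, against 8.18 with the GFP plasmid. The level of the gene deleted in HCT116-p53KO is not analysed here. The siRNA sequences are not used here, and action of the siRNA on other transcripts was not tested.

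The 4 arrays had median intensities of 6.95 to 7.0 over all probe sets, and 72.6% to 75.2% of genes reached 6 on each. The epithelial markers EPCAM, CDH1, KRT8, KRT18, KRT19 and LGALS4 reached 6 on all 4 arrays, while the colon markers CDH17, VIL1 and CEACAM6 stayed below 6 on all 4. Of markers of other cell types, PTPRC, CD3E, LYZ, all 3 endothelial genes and DCN stayed below 6. COL1A1, COL1A2, COL3A1 and PDGFRB lay above it, with a summed level of the 5 fibroblast markers of 31.4 to 32.7 on NRF3 siRNA arrays and 31.5 to 31.6 on control siRNA arrays. The summed level of the 9 epithelial and colon markers was lower with NRF3 siRNA in each line, at 78.5 and 76.1, against 80.1 and 78 with control siRNA. A limma fit over all genes tested, with line as a block and an adjusted p of at most 0.05, called CDH1 (-0.71 and -0.48), KRT8 (-0.51 and -0.73) and KRT18 (-0.58 and -0.44) lower, short of 1.5-fold in 1 line or both. KRT19 (-0.19 and -0.27) and VIL1 (-0.07 and -0.16) were lower in both lines by less, and CEACAM6 (0.24 and 0.42) was higher in both. EPCAM (-0.51 and 0.14), CDH17 (0.42 and -0.31) and LGALS4 (0.32 and -0.11) differed in sign between the lines. The summed level of the 4 measured leukocyte markers, of which CD14 reached 6 on 3 arrays, was 18.5 to 20.9 with NRF3 siRNA and 19.4 to 19.9 with control siRNA. The part of these levels in the results was not tested. In bulk RNA, fewer cells of a kind and less RNA per cell cannot be told apart.

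Most shared differences were modest. Among the 230 genes lower in both lines the median difference was -0.92 in HCT116 and -0.78 in HCT116-p53KO, and among the 162 higher genes it was 0.73 and 0.80. The lower genes made up 27.1% of the 850 genes that were 1.5-fold lower in HCT116 and 69.3% of the 332 that were so in HCT116-p53KO. The higher genes made up 42.4% of 382 and 32.3% of 502. The difference of lower genes was larger in HCT116 for 157 of them (68.3%), and that of higher genes for 76 (46.9%). At 2-fold, 35 genes were lower and 8 higher in both lines. Median levels over the 4 arrays were 8.91 for the lower genes, 8.81 for the higher genes and 8.12 for all genes tested.

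**Figure D1:**
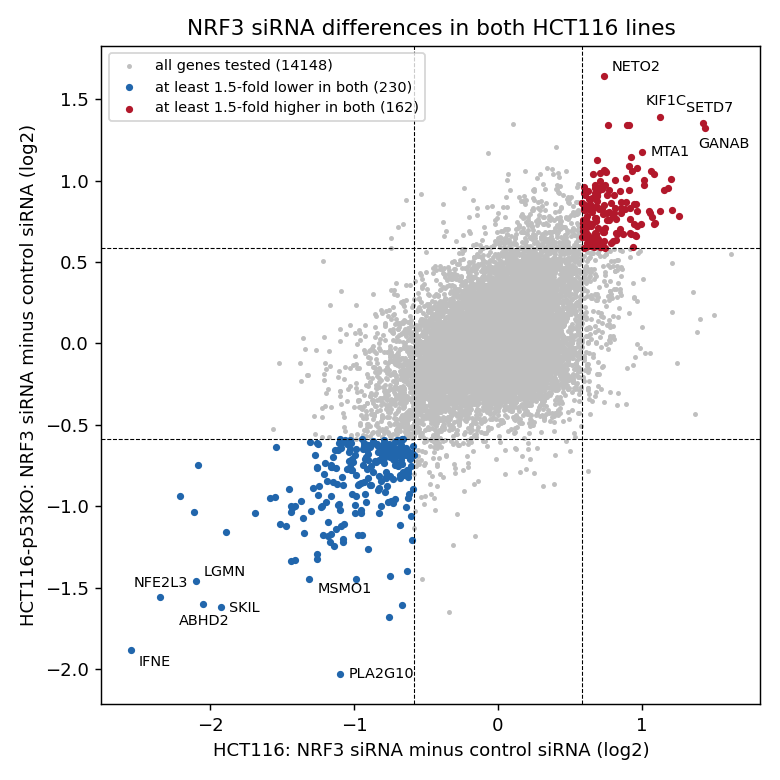
Difference between NRF3 siRNA and control siRNA in HCT116 (x axis) and HCT116-p53KO (y axis), both log2, with 1 point per gene. Dashed lines mark 1.5-fold; the 230 genes lower in both lines (blue) reach farther from 0 than the 162 genes higher in both (red), and IFNE and NFE2L3 have the lowest values in HCT116.

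With 1 array per group, the only replication is between the lines. limma with line as a block, over all 14148 genes and with Benjamini-Hochberg adjustment at 0.05, called 768 genes lower (5.43%) and 630 higher (4.45%). All 230 and all 162 shared genes were among them, as the choice of the genes uses the same contrast. The fit had 1 residual degree of freedom and gave every gene the same SE of 0.16 on the mean difference, so a call amounts to a mean change of at least 1.37-fold. With a prior taken from the fit of all 6 arrays limma called 0 genes, and 1822 genes had an unadjusted p under 0.05. The fit of 6 arrays set the GFP plasmid with NRF3 siRNA and the NRF3 plasmid with control siRNA. An H1299 difference that does not mirror the knockdowns therefore adds to its spread. The p-values of the fit of 4 arrays rest on the spread of the difference between the lines, pooled over all genes. A gene's own spread between the lines does not enter them. Both lines stem from the same tumour. Both NRF3 siRNA arrays lay below both control siRNA arrays for 219 of the 230 lower genes, against 20.1% of all genes tested. They lay above both for 155 of the 162 higher genes, against 21.1% of all genes tested. These shares too follow from the choice of the genes, so a lack of overlap given for a shared gene below adds no support.

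IFNE had the most marked shared decrease. It encodes an interferon made by epithelia and was at 4.35 and 4.19 with NRF3 siRNA, against 6.90 and 6.07 with control siRNA, so that it fell below 6 only on the NRF3 siRNA arrays. SKIL, which encodes SnoN, a repressor of SMAD-driven transcription, was at 5.53 and 5.89, against 7.46 and 7.50. ABHD2, a lipid hydrolase, was at 7.01 and 7.36, against 9.06 and 8.96. Like IFNE, SKIL reached 6 only on the control siRNA arrays. For all 3 genes the groups did not overlap, as for 219 of the 230 lower genes. The lower value of the siRNA pair came from HCT116-p53KO for IFNE and from HCT116 for SKIL and ABHD2.

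LGMN encodes legumain, the asparaginyl endopeptidase of lysosomes. It was at 8.75 and 9.11 with NRF3 siRNA, against 10.85 and 10.57 with control siRNA. The imprinted gene MEST was at 8.44 and 8.66, against 9.87 and 9.99. APOBEC3B, a cytidine deaminase acting on single-stranded DNA, was at 9.93 and 9.42, against 11.34 and 10.75. The differences of these genes lay between -2.10 and -1.33, and none of their groups overlapped. Among further genes of the 30 lowest were the Ras-like GTPase RALB (-1.18 in both lines), the adenosine-degrading enzyme ADA (-1.18 and -1.10) and the secreted phospholipase PLA2G10 (-1.10 and -2.03). PLA2G10 was near the threshold of 6, at 5.34 and 4.58 with NRF3 siRNA, against 6.44 and 6.61 with control siRNA.

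SETD7 and GANAB stood highest among the shared increases. SETD7, a lysine methyltransferase that acts on histone H3 and other proteins, was at 9.98 and 9.74 with NRF3 siRNA, against 8.55 and 8.39 with control siRNA. GANAB, the catalytic subunit of glucosidase II, which trims glucose from N-glycans in the endoplasmic reticulum, was at 11.61 and 11.57, against 10.17 and 10.25. KIF1C, a kinesin motor, was at 9.52 and 9.59, against 8.39 and 8.20. These 3 genes were 2.19-fold to 2.72-fold higher, with no overlap between the groups.

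ENSA, which inhibits the phosphatase PP2A at mitotic entry, was at 10.35 and 10.79 with NRF3 siRNA, against 9.29 and 9.74 with control siRNA. The liver-type phosphofructokinase PFKL was at 9.56 and 9.43, against 8.48 and 8.39. ACAT1, the mitochondrial thiolase that makes and breaks acetoacetyl-CoA, was at 10.08 and 10.36, against 8.88 and 9.35. MTA1, which belongs to the NuRD remodelling and deacetylase complex, was at 10.46 and 10.57, against 9.46 and 9.40. The groups of these 4 genes did not overlap, although the baseline of ENSA and ACAT1 was higher in HCT116-p53KO. ENSA has 3 probe sets, of which 2 were past 1.5-fold in both lines and the weakest differed by 0.25 in its weaker line. NETO2, an auxiliary subunit of kainate receptors, had the largest single increase of a shared gene in HCT116-p53KO (1.64), with 0.74 in HCT116.

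**Figure D2:**
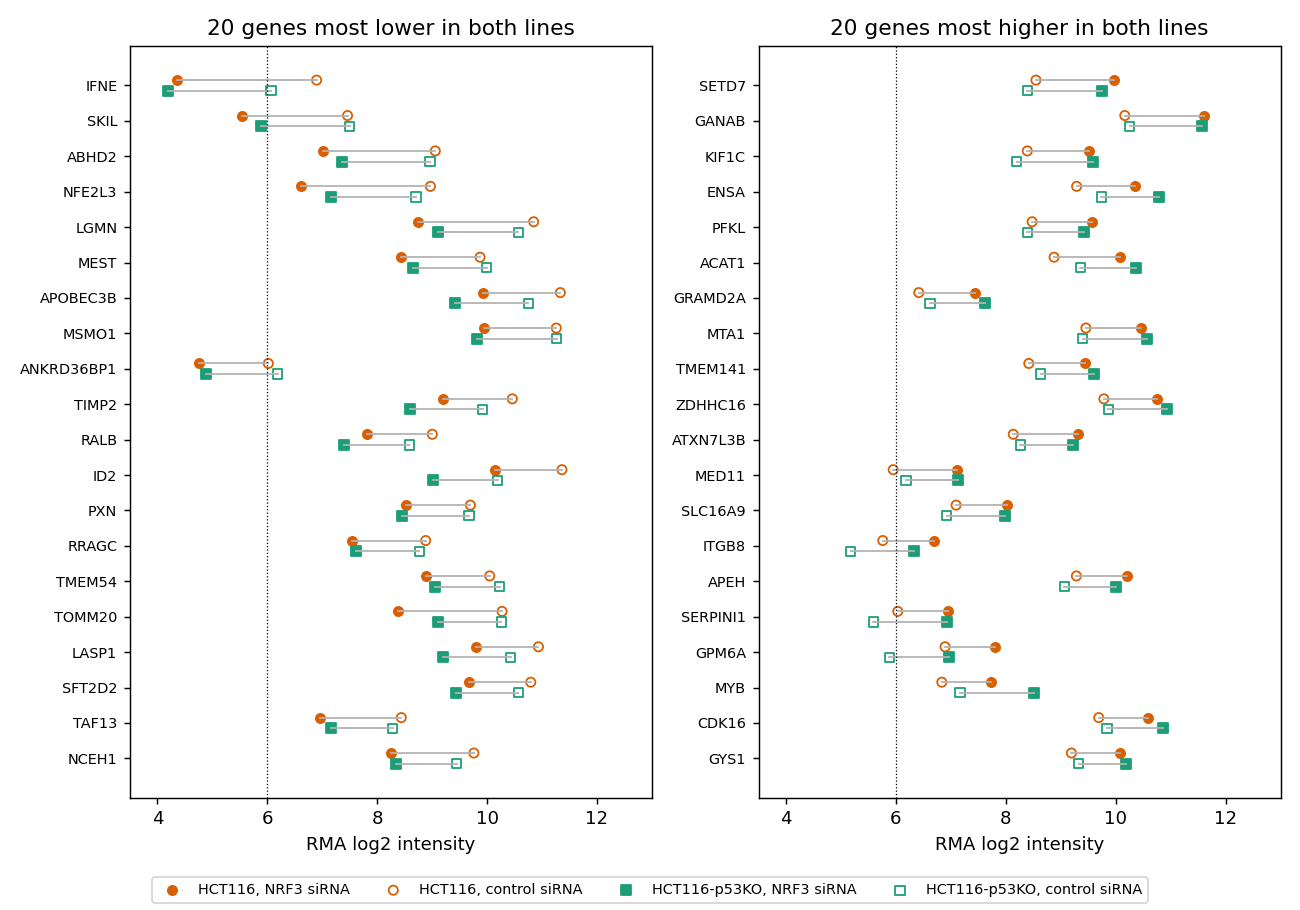
RMA log2 intensity of the 20 genes most lower (left) and most higher (right) in both lines, ranked by the smaller of the 2 differences and without small RNAs. Filled marks are NRF3 siRNA arrays, open marks control siRNA arrays, circles HCT116 and squares HCT116-p53KO, with 1 array each; the dotted line is the expression threshold of 6.

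Promoters of members were searched for the core of the antioxidant response element, since this is the site class that CNC factors bind. RefSeq sequence of GRCh38.p14, 250 bases before to 50 after each start site, was found for 185 of the 230 lower and 133 of the 162 higher genes. The core TGACNNNGC, on either strand, was in 28 of the lower genes' promoters (15.1%) and 29 of the higher genes' promoters (21.8%), against 15.3% of 11093 promoters of genes tested. Shown are the most lowered and most raised pair of genes with a match, and PCLAF, whose window also covers the start site of the oppositely oriented neighbour TRIP4. The match of PCLAF is the same site as the match of TRIP4, so it is counted among both the higher and the lower genes. Capitals mark the core as read on the gene's strand, where GCNNNGTCA is its reverse complement. The windows are chr15:89040748-89041047 (plus strand) for ABHD2, chr1:38859723-38860022 (minus) for RRAGC, chr11:62646564-62646863 (minus) for GANAB, chr1:150629563-150629862 (minus) for ENSA and chr15:64387638-64387937 (minus) for PCLAF.
ABHD2: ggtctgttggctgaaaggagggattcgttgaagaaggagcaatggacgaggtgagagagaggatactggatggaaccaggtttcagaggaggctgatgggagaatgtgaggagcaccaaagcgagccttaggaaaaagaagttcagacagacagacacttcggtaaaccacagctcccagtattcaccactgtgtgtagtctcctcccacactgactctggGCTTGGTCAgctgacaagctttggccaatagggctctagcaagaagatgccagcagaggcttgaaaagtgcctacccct
RRAGC: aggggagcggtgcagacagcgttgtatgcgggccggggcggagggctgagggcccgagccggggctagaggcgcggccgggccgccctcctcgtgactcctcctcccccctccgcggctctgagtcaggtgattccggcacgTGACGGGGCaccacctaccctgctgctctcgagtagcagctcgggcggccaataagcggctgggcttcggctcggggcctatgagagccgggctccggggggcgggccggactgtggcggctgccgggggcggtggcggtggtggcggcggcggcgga
GANAB: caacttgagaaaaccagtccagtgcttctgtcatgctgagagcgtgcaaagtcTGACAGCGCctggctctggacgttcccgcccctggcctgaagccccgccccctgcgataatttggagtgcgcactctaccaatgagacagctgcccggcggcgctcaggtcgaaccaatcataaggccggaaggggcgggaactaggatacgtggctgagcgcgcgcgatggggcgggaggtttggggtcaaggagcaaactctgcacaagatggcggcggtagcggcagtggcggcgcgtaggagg
ENSA: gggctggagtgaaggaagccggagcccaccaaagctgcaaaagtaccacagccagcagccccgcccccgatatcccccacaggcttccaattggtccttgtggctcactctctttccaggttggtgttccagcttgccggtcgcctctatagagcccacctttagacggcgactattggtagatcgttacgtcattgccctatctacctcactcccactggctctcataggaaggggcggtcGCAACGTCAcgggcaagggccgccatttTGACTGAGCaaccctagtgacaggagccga
PCLAF: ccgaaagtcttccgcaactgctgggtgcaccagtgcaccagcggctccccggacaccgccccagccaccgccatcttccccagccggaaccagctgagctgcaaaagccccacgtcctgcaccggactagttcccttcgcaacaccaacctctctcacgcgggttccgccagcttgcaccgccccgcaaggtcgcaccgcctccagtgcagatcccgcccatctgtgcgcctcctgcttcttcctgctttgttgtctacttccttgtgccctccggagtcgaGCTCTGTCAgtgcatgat

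A match is a description of the letters and not a bound site. ENSA held 2 cores, and ABHD2 held 1 at -29, with the start site counted as 0. The AP-1 motif TGANTCA was in 7.03% of the lower genes' and 6.77% of the higher genes' promoters, against 4.62% of all. The CCAAT box was in 37.3% and 34.6%, against 35.6%, and the GC box GGGCGG in 73.0% and 76.7%, against 68.3%. The sterol element TCACNCCAC was in 1.62% of the lower genes' promoters, against 1.05% of all. The windows of MSMO1, IDI1, NSDHL, HMGCS1 and SC5D held no such letters.

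The 392 genes were sorted by hand into 21 function groups from general knowledge after they had been found, so the counts are descriptions with no test. For the counts of list members given below, the shares over all genes tested were 1.63% lower and 1.15% higher at 1.5-fold in both lines. Of all genes tested, limma called 5.43% lower and 4.45% higher. Transcriptional regulators formed the largest group, with 27 lower and 19 higher genes, 11.7% of either set. Signalling enzymes followed with 19 lower and 15 higher. Vesicle traffic held 21 lower and 7 higher genes (9.13% of the lower and 4.32% of the higher), adhesion and matrix 19 and 8, and ubiquitin ligases and their partners 12 and 3. Sugar, amino acid and nucleotide metabolism ran the other way, with 6 lower and 13 higher genes (2.61% and 8.02%). No group was assigned to 21 lower and 12 higher genes, and small RNAs made up 4 lower and 1 higher.

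**Figure D3:**
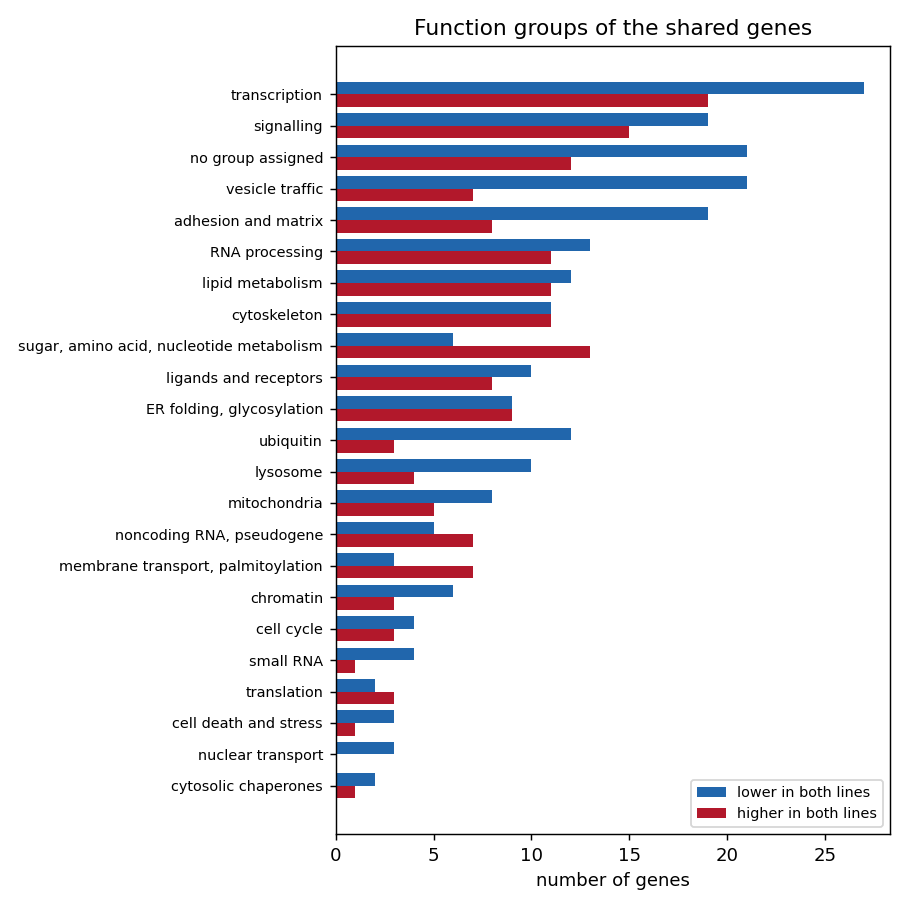
Number of genes at least 1.5-fold lower (blue) or higher (red) with NRF3 siRNA in both lines, for each function group. The vesicle traffic, adhesion, ubiquitin and lysosome groups, sorted by hand, held more lower genes, while sugar, amino acid and nucleotide metabolism and membrane transport held more higher ones.

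Among transcriptional regulators the lower genes included several factors that act downstream of TGF-beta and BMP signals. SMAD3, the signal transducer itself, was at 10.03 and 9.07 with NRF3 siRNA, against 11.11 and 10.28 with control siRNA. ID2, an inhibitor of basic helix-loop-helix factors, was at 10.15 and 9.02, against 11.36 and 10.20. In both genes levels were higher in HCT116, and the HCT116 siRNA array lay just below the HCT116-p53KO control array, so the groups came close without overlapping. The homeobox factor MSX2 was at 8.57 and 9.08, against 9.64 and 10.19. WWTR1, the Hippo pathway co-activator TAZ, was at 9.10 and 8.68, against 10.04 and 9.86. TAF13, a subunit of the promoter-binding complex TFIID, differed by -1.48 and -1.12, and POLR2A, the largest subunit of RNA polymerase II, by -0.83 and -0.90. Of the 39 TGF-beta and SMAD genes tested, 3 were at least 1.5-fold lower in both lines (SKIL, SMAD3 and ID2), against 1.63% of all genes tested. For 9 of the 39, limma called a lower level, against 5.43% of all genes tested, and 1, the co-repressor SKI, was called higher (0.52 and 0.51). The median difference of the list was -0.17 in HCT116 and -0.15 in HCT116-p53KO, against 0.01 and 0.00 over all genes.

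Higher regulators were of other kinds. MYB, a proto-oncogene of progenitor cells, was at 7.74 and 8.51 with NRF3 siRNA, against 6.83 and 7.17 with control siRNA. ATF4, the factor that drives amino acid stress genes, was at 10.96 on both NRF3 siRNA arrays, against 10.22 and 10.25. A second probe set of ATF4 pointed the same way but missed 1.5-fold, with 0.42 in its weaker line. NR2F1, an orphan nuclear receptor, was at 10.73 and 9.92, against 9.92 and 9.01. ATXN7L3B differed by 1.19 and 0.95, the Mediator subunit MED11 by 1.16 and 0.94, and the co-repressor TLE5 by 0.94 and 0.86. Of the 20 ATF4 and amino acid stress genes tested, limma called 5 higher, against 4.45% of all genes tested. Of these, 2 (ATF4 and PPP1R15A, a phosphatase subunit that restores translation after stress) reached 1.5-fold in both lines, against 1.15% of all genes tested. The median of that list was 0.32 in HCT116 and 0.19 in HCT116-p53KO. In H1299 its median was 0.84 with the NRF3 plasmid against the GFP plasmid, also a higher level.

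Chromatin proteins were lower for 6 genes and higher for 3. H2AZ1, a histone variant, was at 10.69 and 11.16 with NRF3 siRNA, against 11.88 and 12.01 with control siRNA. KMT5A, which methylates histone H4, was at 10.50 and 10.56, against 11.32 and 11.23, but the 3 probe sets of this gene did not all point the same way. MTA1 was joined by 2 other subunits of NuRD among the limma calls. Thus 3 of the 15 tested were called higher, against 4.45% of all genes tested. The list's median was 0.04 in HCT116 and 0.13 in HCT116-p53KO.

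RNA-binding and RNA-modifying proteins split into 13 lower and 11 higher genes. RBMS1, which binds A/U-rich RNA, was at 6.63 and 7.21 with NRF3 siRNA, against 8.85 and 8.15 with control siRNA, a much larger difference in HCT116. The mRNA-destabilising protein RC3H2 differed by -1.30 and -1.03. Higher members were the splicing regulator of epithelia ESRP2 (0.77 and 0.94), the tRNA-modifying enzyme DUS1L (0.74 and 1.07) and the spliceosome protein PHF5A (0.67 and 0.68). Of 52 spliceosome core, SR and hnRNP genes tested, 0 were 1.5-fold the same way in both lines. Translation factors gave EIF3F (1.09 and 0.74) and EEF2K (0.72 and 0.61) higher and EIF4G1 (-0.73 and -0.71) lower. EIF3F has a second probe set that differed by as little as 0.10 in its weaker line. Of the 56 cytosolic ribosomal protein genes tested, 0 reached 1.5-fold the same way in both lines, with list medians of 0.08 and 0.13.

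Shared genes assigned to adhesion and matrix were lower in 19 cases and higher in 8. The epithelial markers CDH1, KRT8 and KRT18 given above were lower beside them, while CEACAM6 was higher in both lines. EPCAM, CDH17 and LGALS4 differed in sign between the lines. The part of these markers in the result was not tested. PXN, which encodes the focal adhesion adaptor paxillin, was at 8.53 and 8.45 with NRF3 siRNA, against 9.70 and 9.67 with control siRNA. The integrin chain ITGB5 was at 8.98 and 8.83, against 10.08 and 9.85. ITGA2, a chain of the collagen receptor, was at 9.35 and 8.90, against 10.11 and 10.58. For these 3 genes the arrays of the groups did not overlap, and ITGA2 differed more in HCT116-p53KO (-1.68) than in HCT116 (-0.76). ITGA5, a chain of the fibronectin receptor, differed by -0.79 and -0.73, and TNS4, a tensin, by -0.73 and -0.98. ITGB8 went the other way from a low level, at 6.69 and 6.32 with NRF3 siRNA, against 5.76 and 5.17. Of the 29 integrin and focal adhesion genes tested, 5 were 1.5-fold lower and 1 higher in both lines, against 1.63% and 1.15% of all genes tested. For 6 of the 29, limma called a lower level, against 5.43% of all genes tested, and the medians were -0.13 and -0.24. PXN has another probe set whose difference was 0.12 in size in its weaker line.

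Matrix regulators among the shared genes went both ways. TIMP2, an inhibitor of metalloproteinases, was at 9.20 and 8.60 with NRF3 siRNA, against 10.46 and 9.92 with control siRNA. LOXL2, a collagen cross-linking oxidase, was at 7.62 and 7.54, against 8.59 and 8.41, and TGM2, a transglutaminase, was at 7.68 and 7.60, against 8.67 and 8.25. Tight junction protein CLDN12 differed by -1.0 and -1.04. Higher members were the metalloprotease ADAM15 (0.75 and 1.06), the p53-induced junction protein PERP (0.85 and 0.70), the proteoglycan VCAN (0.67 and 0.77) and the serine protease inhibitor SERPINI1 (0.91 and 1.34). A list of metalloproteinases, their inhibitors and matrix proteins had 31 genes tested and did not hold LOXL2, TGM2 or VCAN. Within that list TIMP2 and ADAM15 were the only 2 past 1.5-fold in both lines. For the same list limma called 3 lower and 3 higher, and the medians were 0.01 and -0.12.

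Cytoskeletal genes were evenly divided, 11 lower and 11 higher. LASP1, an actin-binding adaptor, was at 9.80 and 9.19 with NRF3 siRNA, against 10.94 and 10.43 with control siRNA. Its second probe set differed by only 0.08 in size in its weaker line. ROCK2, a kinase that acts on stress fibres, was at 8.75 and 8.45, against 9.90 and 9.21. Other lower genes bind or cap actin, among them TMOD3 (-0.85 and -0.73), CORO1C (-1.03 and -0.72) and CAPZA2 (-1.15 and -0.70). Higher genes were KIF1C, KIF9 (0.81 and 0.83), the actin-oxidising enzyme MICAL2 (0.71 and 0.83) and the ciliary genes CFAP36 (0.85 and 0.94) and CC2D2A (0.74 and 0.85).

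Shared genes assigned to vesicle traffic were lower in 21 cases and higher in 7. SFT2D2, a Golgi transport protein, was at 9.67 and 9.44 with NRF3 siRNA, against 10.80 and 10.57 with control siRNA. YIPF1, also of the Golgi, was at 6.82 and 7.15, against 8.26 and 8.18. PIKFYVE, the kinase that makes an endosomal phosphoinositide, was at 7.45 and 7.57, against 8.64 and 8.55. All 3 were lower on each NRF3 siRNA array than on either control siRNA array. The RAB GTPase-activating proteins EVI5 (-1.37 and -0.97) and TBC1D13 (-1.25 and -0.88) were also lower. Among the 7 higher genes were the exocytosis factors UNC13B (1.06 and 0.80) and NSF (0.67 and 0.63) and the granule protein SCG2 (0.71 and 1.04). Of the lists of core machinery, 1 of 44 genes of transport between endoplasmic reticulum and Golgi and 0 of 49 RAB and endosome genes were 1.5-fold lower in both lines, against 1.63% of all genes tested. limma called 3 of the first list lower, and 4 of the second lower and 5 higher, with medians of -0.14 and -0.08 for the first list and -0.14 and -0.06 for the second.

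Shared genes assigned to the lysosome, 10 lower and 4 higher, included 4 that take part in relaying nutrient state to the kinase mTORC1. RRAGC, a Rag GTPase, was at 7.53 and 7.61 with NRF3 siRNA, against 8.88 and 8.77 with control siRNA. SAMTOR, a sensor of S-adenosylmethionine, was at 7.38 and 7.25, against 8.47 and 8.37. SLC36A1, a lysosomal amino acid carrier, differed by -0.68 and -0.72. FNIP2, a folliculin partner that acts on Rag GTPases, went the other way and was at 8.15 and 8.50, against 7.46 and 7.62. The proton pump subunit ATP6V1B2 (-0.99 and -0.93) and the sialidase NEU1 (-0.62 and -0.95) were lower, and NEU1 was past 1.5-fold on all 3 of its probe sets. The enzymes GAA (0.87 and 0.67), PPT1 (0.61 and 0.68) and ARSG (0.92 and 0.77) were higher. Of 33 lysosomal hydrolases, proteases and membrane proteins tested, 2 were lower (LGMN and NEU1) and 2 higher (GAA and PPT1) in both lines, with medians of 0.06 and 0.05.

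Shared genes assigned to ubiquitin ligases and their partners were lower in 12 cases and higher in 3. RMND5A, the RING subunit of the CTLH ligase, was at 7.81 and 8.20 with NRF3 siRNA, against 9.16 and 9.27 with control siRNA. Of 11 CTLH genes tested, limma called 3 lower, against 5.43% of all genes tested. RMND5A alone reached 1.5-fold in both lines, with list medians of -0.34 and -0.18. Of 40 cullin ligase genes tested, 1 was 1.5-fold lower in both lines and 3 were called lower, and of 25 ubiquitin-conjugating enzymes 0 reached 1.5-fold the same way in both lines, against 1.63% of all genes 1.5-fold lower. UBE3B (-1.02 and -0.77), COPS7B of the COP9 signalosome (-0.92 and -0.64) and the COMMD family member COMMD7 (-1.08 and -0.82) were lower. KLHL18, a cullin adaptor, was higher at 9.32 on both NRF3 siRNA arrays, against 8.43 and 8.50. The substrate receptor VHL was also higher (0.75 and 0.59). Of 43 proteasome genes tested, 0 were 1.5-fold the same way in both lines, with medians of -0.14 and 0.02.

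Lipid genes divided by pathway. Several enzymes of cholesterol synthesis were lower: the methylsterol oxidase MSMO1 was at 9.95 and 9.83 with NRF3 siRNA, against 11.26 and 11.27 with control siRNA. HMGCS1, which makes HMG-CoA, was at 7.88 and 8.53, against 8.79 and 9.15. The isomerase IDI1 was at 9.16 and 9.29, against 9.91 and 9.99. The sterol dehydrogenase NSDHL (-0.89 and -0.64) and the desaturase SC5D (-0.87 and -0.62) followed, and MSMO1 had the widest gap of these 5. Of 17 enzymes of the pathway tested, these 5 were 1.5-fold lower in both lines and 7 were called lower by limma, against 1.63% and 5.43% of all genes tested. At any size, 11 of the 17 were lower and 3 higher in both lines, and medians were -0.45 and -0.25. NCEH1, a cholesteryl ester hydrolase, was at 8.25 and 8.34, against 9.76 and 9.45.

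Some mitochondrial fat and ketone enzymes were higher. DECR1, which handles unsaturated fatty acids, was at 9.96 and 9.67 with NRF3 siRNA, against 9.23 and 8.98 with control siRNA. ECI1, an isomerase of the same route, was at 10.00 and 10.11, against 9.40 and 9.26. With ACAT1 these were the 3 of 22 listed genes past 1.5-fold in both lines, against 1.15% of all genes tested. limma called 5 of the 22 higher, against 4.45% of all genes tested. These added BDH1 (0.29 and 0.79) and the carnitine carrier SLC25A20 (0.49 and 0.58), and the other 17 were not called. Medians were 0.18 and 0.21, and 4 genes were lower in both lines at any size. Signal lipids gave both directions, with PLA2G7 (1.26 and 0.78) and the prostaglandin synthase PTGS2 (0.69 and 0.77) higher and PLA2G10 and the lysophospholipid acyltransferase MBOAT1 (-1.16 and -0.93) lower.

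Among enzymes of intermediary metabolism, GYS1, the muscle-type glycogen synthase, was at 10.09 and 10.20 with NRF3 siRNA, against 9.19 and 9.33 with control siRNA. CTH, which makes cysteine from cystathionine, was at 7.34 and 7.39, against 6.57 and 6.59. CAD, which begins pyrimidine synthesis, was at 10.22 and 10.60, against 9.53 and 9.69. None of these groups overlapped. KYAT3 (0.67 and 0.97), SMOX (0.92 and 0.67) and malic enzyme ME1 (0.73 and 0.60) were higher as well. Lower members were ADA, the cytosolic isocitrate dehydrogenase IDH1 (-0.92 and -0.97), the enzyme DDAH1 that clears methylated arginines (-1.15 and -0.85) and the polyamine acetyltransferase SAT1 (-0.77 and -0.87). Of 31 one-carbon and nucleotide genes tested, limma called 4 higher and 1 lower, against 4.45% and 5.43% of all genes tested. CAD and MTHFD2L reached 1.5-fold in both lines, against 1.15% of all genes tested. The list's medians were 0.12 and 0.24. In glycolysis, PFKL was higher and the carrier SLC2A12 lower among 22 genes, with medians of -0.14 and -0.03. SLC2A12 reached 6 only on the control siRNA arrays, at 6.37 and 6.05, against 5.65 and 5.30 with NRF3 siRNA.

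Mitochondrial import receptors moved in opposite directions. TOMM20 was at 8.38 and 9.10 with NRF3 siRNA, against 10.27 and 10.26 with control siRNA, a larger difference in HCT116. TOMM22, a subunit of the same outer membrane complex, was at 12.11 and 12.26, against 11.06 and 11.45, with both of its probe sets past 1.5-fold. HSPE1, the co-chaperonin of the matrix, differed by -1.22 and -1.0, and the magnesium channel MRS2 by -1.23 and -1.0. Of 31 import genes tested, 2 were lower and 1 higher in both lines. Higher mitochondrial genes were the topoisomerase TOP1MT (0.79 and 0.86), the heme A synthase COX15 (0.62 and 0.78) and the protease LONP1 (0.59 and 0.86).

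Folding and glycosylation genes of the secretory route were 9 lower and 9 higher. Beside GANAB, ERLIN1, which marks proteins of the endoplasmic reticulum for degradation, was at 11.15 and 11.27 with NRF3 siRNA, against 10.29 and 10.43 with control siRNA. The thiol oxidase ERO1A (0.73 and 0.69) and the heparan sulfotransferase HS3ST1 (0.82 and 0.76) were higher. The nucleotide sugar carrier SLC35B4 was at 7.69 and 7.82, against 8.76 and 9.03. The disulfide isomerase PDIA5 (-0.89 and -0.87) and the retrotranslocation factor DERL2 (-0.92 and -0.70) were lower. Of 32 genes of glycoprotein folding and its quality control tested, 1 was lower and 2 higher in both lines, with medians of -0.11 and 0.06. Among palmitoyltransferases and depalmitoylating enzymes, ZDHHC16 (0.97 and 1.08), ZDHHC18 (0.73 and 0.79) and PPT1 were higher and ZDHHC3 (-1.05 and -0.77) lower, 4 of 26 genes tested. A second probe set of ZDHHC3 differed by only 0.08 in size in its weaker line.

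Kinases, phosphatases and their regulators were lower for 19 genes and higher for 15. MOB1B, a co-activator of the Hippo kinases, was at 7.56 and 7.51 with NRF3 siRNA, against 8.67 and 8.50 with control siRNA. RASSF2 differed by -1.44 and -1.0, the stress kinase MAP2K4 by -0.83 and -0.82, and the cytokine receptor kinase JAK1 by -0.67 and -0.69. CDK16 was higher at 10.58 and 10.86, against 9.69 and 9.84. CDK14 (0.81 and 0.80), the phosphatase DUSP3 (0.92 and 0.83) and the insulin receptor substrate IRS1 (0.64 in both lines) were higher. Among ligands and receptors, the growth factor PDGFB (-0.83 and -0.89), the lipase inhibitor ANGPTL4 (-1.03 and -0.77) and the retinoic acid-induced receptor GPRC5A (-0.64 and -1.40) were lower. The axon guidance ligand SEMA3A (0.69 and 1.13) and the lysophosphatidate receptor LPAR3 (0.62 in both lines) were higher.

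Cell cycle genes were few among the shared ones, 4 lower and 3 higher. CDK6, a G1 kinase, was at 8.90 and 8.66 with NRF3 siRNA, against 9.71 and 9.50 with control siRNA. HMMR, a spindle protein, was at 6.27 and 7.19, against 8.35 and 7.93, and the centromere protein OIP5 at 7.61 and 8.57, against 9.20 and 9.52. Both differed more in HCT116. PCLAF, which binds the replication clamp, was higher at 10.67 and 11.24, against 9.96 and 10.24, and the cyclin CCNE2 differed by 0.70 and 0.64. A second probe set of PCLAF pointed the same way but missed 1.5-fold, with 0.51 in its weaker line. Of 34 G2 and mitosis genes tested, limma called 14 lower but 2 reached 1.5-fold in both lines, against 5.43% and 1.63% of all genes tested. Their median was -0.72 in HCT116 and -0.08 in HCT116-p53KO, and 12 of the 14 calls did not reach 1.5-fold in HCT116-p53KO. The difference between the lines was not tested. Among 29 direct p53 targets tested, PERP and PLK2 (0.95 and 0.66) were higher and TP53INP1 (-0.67 and -1.61) lower in both lines, with medians of 0.31 and -0.01. The nuclear transport receptors KPNA1 (-1.01 and -0.73), XPO4 (-1.26 and -0.61) and IPO8 (-0.66 and -0.59) were lower.

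Within the family of the targeted gene, NFE2L3 was the only one of 9 CNC, MAF, BACH and KEAP1 genes tested to reach 1.5-fold in both lines. NFE2L1, which encodes NRF1, was called higher by limma, at 10.61 and 10.37 with NRF3 siRNA, against 9.78 and 9.86 with control siRNA. NFE2L2, which encodes NRF2, was called lower, at 9.89 and 9.95, against 10.52 and 10.46. For NFE2L1 both NRF3 siRNA arrays lay above both control siRNA arrays, as for 21.1% of all genes tested. For NFE2L2 both lay below, as for 20.1% of all genes tested. The adjusted p of NFE2L1 and NFE2L2 in limma was 0.00105 and 0.00799, and it rests on the SE shared by all genes. With the prior of the 6-array fit limma called 0 genes. Both genes were named after their values were seen.

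H1299 gave an independent readout, since it shares no arrays with the knockdowns, although it has 1 array per group and no test. Of the 230 lower genes, 208 reached 6 in H1299, and 116 of these (55.8%) were higher with the NRF3 plasmid than with the GFP plasmid, against 49.7% of all 10960 genes so expressed. At 1.5-fold, 19 (9.13%) were higher, against 4.71% of all genes, and 13 (6.25%) were lower, against 3.79%. The 116 and the 19 include NFE2L3 itself, the gene of the NRF3 plasmid. Of the 162 higher genes, 144 were expressed, with 73 (50.7%) higher, 9 (6.25%) at 1.5-fold higher and 10 (6.94%) at 1.5-fold lower. Both sets thus exceeded 1.5-fold in either direction more often than all genes did (15.4% and 13.2%, against 8.49%), and the medians were 0.04 and 0.00.

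Lower genes that were higher with the NRF3 plasmid were led, after NFE2L3 itself, by HMGCS1, at 9.44 with the NRF3 plasmid, against 7.68 with the GFP plasmid. TGM2 was at 7.72 against 6.32, SC5D at 8.11 against 6.95, and GPRC5A at 8.49 against 7.50. RMND5A was at 8.14 against 7.16 and MSMO1 at 9.47 against 8.62. Of the 10 lower lipid genes expressed in H1299, 5 were at least 1.5-fold higher there, namely HMGCS1, SC5D, MSMO1, CHKA and IDI1, while CRABP2, a retinoic acid carrier, was 1.77-fold lower (-0.82) and NSDHL differed by 0.03. The cholesterol synthesis list had a median of 0.34 in H1299. SKIL (0.12), LGMN (0.05), ABHD2 (-0.14) and TOMM20 (0.03), which were among the lowest in the knockdowns, did not reach 1.5-fold in H1299, and IFNE was below 6 there. MEST, also among the lowest in the knockdowns, was 1.59-fold lower with the NRF3 plasmid, at 5.84 against 6.51. It thus moved the same way as with NRF3 siRNA.

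Some genes moved the same way in H1299 with more NRF3 as in HCT116 with less. DAB2, an endocytic adaptor lower in both knockdowns (-0.93 and -0.85), was at 4.70 with the NRF3 plasmid, against 6.62 with the GFP plasmid. CRIP2 was at 8.44 against 9.56, TUBB4A at 5.71 against 6.78, E2F5 at 8.09 against 9.06 and MLLT11 at 8.72 against 9.65. Higher genes that were lower with the NRF3 plasmid were led by the lens filament gene BFSP1, at 6.07 against 7.37, and SLC16A9, at 5.0 against 6.21. VCAN was at 6.76 against 7.72 and SEMA3A at 5.69 against 6.59. Higher genes that were also higher with the NRF3 plasmid included ARHGAP18, at 8.63 against 7.81, CTH, at 6.58 against 5.77, and MICAL2, at 7.57 against 6.79.

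**Figure D4:**
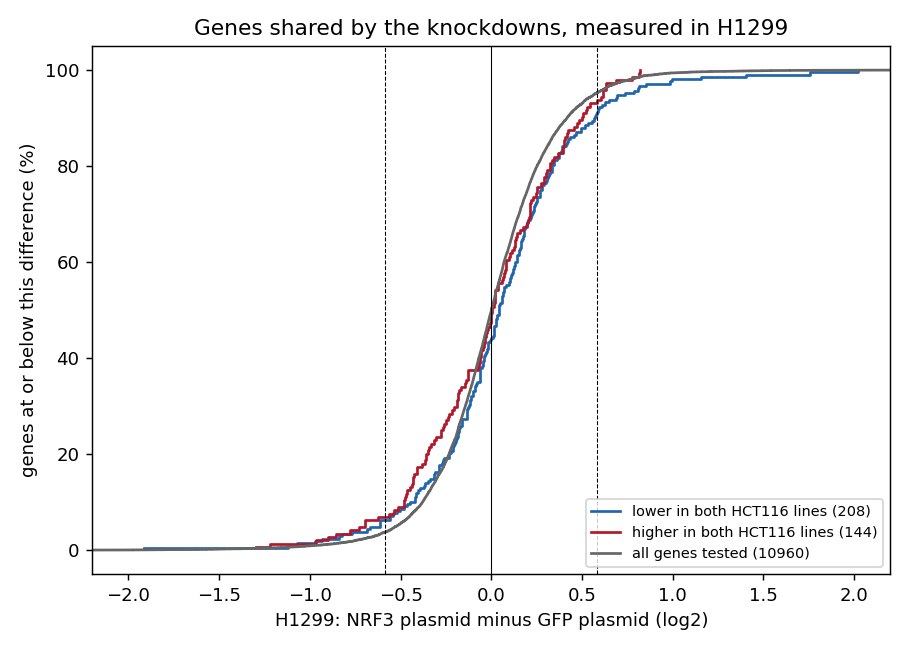
Share of genes (y axis, percent) at or below each H1299 difference between the NRF3 plasmid and the GFP plasmid (x axis, log2), for genes lower in both HCT116 lines (208, blue), higher in both (144, red) and all genes tested (10960, grey). The blue curve runs to the right of the grey one at the high end, with 9.13% of its genes at least 1.5-fold higher, against 6.25% of red and 4.71% of grey. At the low end both coloured curves lie above the grey one, with 6.25% of blue and 6.94% of red genes at least 1.5-fold lower, against 3.79% of all.

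Several members lie beside each other in the genome, by RefSeq GRCh38.p14. On chromosome 9, IFNE lies within the noncoding gene MIR31HG, which was at 6.47 and 6.40 with NRF3 siRNA, against 8.58 and 7.44 with control siRNA, and a microRNA gene inside it was also lower. Overlapping lower pairs were SFT2D2 with the pseudogene ANKRD36BP1 on chromosome 1, TIMP2 with CEP295NL on chromosome 17, and CCT4 with COMMD1 on chromosome 2. Whether probe sets of overlapping genes read separate transcripts was not tested. Some close neighbours moved in opposite directions: PCLAF was higher (0.71 and 1.0) and TRIP4, 149 bases away, lower (-0.75 and -0.68). MTA1 was higher and CRIP2, 2216 bases away, lower (-1.16 and -0.75), and SFXN2 was higher (0.59 and 0.69) while WBP1L, 456 bases away, was lower (-0.63 and -0.78). KIF9 and KLHL18, 145 bases apart, were both higher.

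The choice of probe set could be examined for 17 shared genes, those with more than 1 probe set. All probe sets were past 1.5-fold in both lines for 5 of them (FAM3C, NEU1, RBMS1, TOMM22 and TRERF1), and the other 12 had at least 1 probe set that missed the rule. All probe sets of 15 genes pointed the same way in both lines, with CTCFL and KMT5A as the exceptions. At the edge of the rule, RAB12 (-1.10 and -0.59) and PPP3CB (-0.67 and -0.59) were just inside among lower genes, and ABHD13 (-0.74 and -0.58) and PIM2 (-0.99 and -0.58) just outside. Among higher genes LONP1 and VHL were just inside, and CBX6 (0.65 and 0.58) and TMEM40 (0.92 and 0.58) just outside. On 12 of the lower and 11 of the higher genes at least 1 array read below 6.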

How the data were processed

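The deposited values of 33297 probe sets on 6 arrays are log2 intensities, which the authors obtained by RMA. Per the submitters' processing notes the program was Affymetrix Expression Console, without a version. RMA includes background correction and quantile normalization, and the set of arrays it was run on is not stated in the labels. H1299 arrays had lower medians (6.05 and 6.08), and their levels are not set against those of HCT116. No pair of arrays shared more than 2.36% of identical values. Total RNA (100 ng) came from cultures with 1 array per group, and the number of arrays limits precision.

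Probe sets were named through GEO's platform annotation: 19460 had 1 symbol, 1754 several and 12083 were not listed there. Entrez numbers of 19429 matched RefSeq GRCh38.p14. The probe set with the highest mean over 6 arrays stood for a gene (18417 genes), at 6 or more on 1 of 4 arrays. The linear model in limma 3.58.1 (R 4.3.3) took line as a block, gave two-sided p-values and was tested on simulated data. The lines share NRF3 siRNA and control siRNA as conditions, so line is the block and each pair comes from the same line. In H1299, genes at 6 on 1 of 2 arrays counted as expressed.

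The members, the 70 lists and the comparisons were chosen with earlier results of these data known. Names were drawn from NFE2L3, the 30 lowest and 30 highest genes by the smaller difference of both lines, 2 genes each side of the 1.5-fold threshold each way, up to 6 members each way of each list and function group, and 5 each way with the largest H1299 differences. Not all of these 251 genes appear in the text. Small RNAs are counted and not named. Other genes (NFE2L1, NFE2L2, SKI, BDH1, SLC25A20, CHKA, CRABP2, TRIP4, WBP1L, COMMD1, probe set exceptions and the values of CDH1, KRT8 and KRT18) were named after their values were seen. Alternatives were other expression filters, averaging over probe sets, repeated quantile normalization, loess correction (span 0.4), other spread estimates, other thresholds and leaving out each line. Some list members and the gene deleted in HCT116-p53KO are not reported here.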

Additional observations from a re-analysis of the deposited data

Results flagged for a closer look

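Members of the shared set were chosen for moving the same way, and a few genes did the opposite at 1.5-fold. With NRF3 siRNA, 5 genes (C2orf66, FRK, NMI, SPP1 and THOC1) were lower in HCT116 and higher in HCT116-p53KO, and 1 gene, THUMPD3-AS1, was higher in HCT116 and lower in HCT116-p53KO. THOC1, a subunit of the mRNA export complex THO, differed by -0.74 in HCT116 and 0.59 in HCT116-p53KO. SPP1, which encodes osteopontin, differed by -0.64 and 0.88. The difference between the lines was not tested, and at least 1 of the 4 arrays read below 6 for C2orf66, FRK, NMI and THUMPD3-AS1.

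The medians of 3 gene lists had opposite signs in the lines. DNA replication and E2F genes had -0.19 in HCT116 and 0.23 in HCT116-p53KO, homologous recombination, mismatch and Fanconi repair genes -0.23 and 0.18, and NF-kappaB targets and CXC chemokines 0.20 and -0.13. These differences were not tested.

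Probe sets outside the comparison also moved in both lines. Of 1333 with several gene symbols, 16 were at least 1.5-fold lower and 24 higher, and of 6809 not in the annotation table, 112 were lower and 40 higher.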

How the results depend on the processing

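The count of limma calls depended on the normalization, the threshold and the estimate of the spread. Against 768 lower and 630 higher, a trended robust prior gave 1013 and 832, repeated quantile normalization gave 440 and 414, loess correction 420 and 321, and an adjusted p of 0.01 gave 477 and 344. Without the replicate block for line, limma called 0 lower and 0 higher genes (1571 at an unadjusted p under 0.05). With each gene's own residual it called 1 and 2 (1086), and with the prior of the 6-array fit 0 and 0 (1822). With 1 line left out, 616 to 1426 genes were lower and 836 to 992 higher by at least 1.37-fold in the remaining line. That fold is the smallest mean change called over both lines. These are counts past a fold in 1 line and not limma calls. The 230 lower and 162 higher genes became 791 and 740 at the looser fold threshold tried and 35 and 8 at 2-fold. Using a single line gave 332 to 850 lower and 382 to 502 higher, where 850 was HCT116 and 502 HCT116-p53KO alone. Other filters, probe set means, quantile and loess settings gave 218 to 243 lower and 151 to 181 higher; loess retained 214 of the 230 and 140 of the 162. The share of lower genes that were higher in H1299 was 49.8% to 59.2%, but 72.4% among genes chosen at 2-fold (21 of 29, with NFE2L3 among them). Of the 251 genes from which names were drawn, 1 (ANKRD36BP1) fell below the expression filter under repeated quantile normalization. The other 250 kept their direction and their limma call under probe set means, that normalization and loess correction. The cause of these changes was not tested, apart from fewer samples or stricter thresholds where those define the setting.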
